A study of Homo sapiens with 38 samples.

Results

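CXCL2, CXCL3, CXCL5, CXCL6 and CXCL8 are 5 chemokines of the CXC class that draw neutrophils, and their mRNA levels were followed in A549 cells given interleukin 1 beta (IL1B) with and without knockdown of ORMDL3. The members were the probe sets whose only gene symbol was one of these 5 names, which gave 1 probe set for each gene and 5 probe sets of the 14488 in the table. CXCL1, the closest relative of CXCL2, is not described here, because the only probe set with its symbol also carried that of CXCL2. A549 is a human lung adenocarcinoma line with alveolar epithelial features, and ORMDL3 encodes a protein of the endoplasmic reticulum that restrains sphingolipid synthesis. The knockdown arm received a pool of siRNAs against ORMDL3, and the other arm is labelled only as control. A silencing period of 48 h is given for both arms. All cells in both arms then spent 24 h without serum before IL1B at 1 ng/ml. Levels are log2 values, so that a difference of 1 is a doubling.

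Each arm was read without IL1B (0 h) and after 2, 4, 8 and 10 h of it, with 4 arrays in each of the 10 groups except control at 8 h (replicates 1 to 3) and knockdown at 0 h (replicates 1, 2 and 4), 38 arrays in all. Collections at 6 and 24 h are not analysed here. No later hour had an array without IL1B, so that IL1B and the hours in culture cannot be told apart. Whether replicates came from separate cultures is not stated in the labels, so that the p-values speak only of the scatter among these arrays, which may be technical. The RNA came from whole cultures, in which fewer responding cells and less RNA per cell cannot be told apart.

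These chemokines are small secreted proteins with a glutamate-leucine-arginine stretch before their first cysteines, the feature that lets them bind CXCR2 on neutrophils. CXCL6 and CXCL8 also bind CXCR1. Airway epithelium makes them when IL1 or bacterial products activate NF-kB, MAP kinases and AP-1, and they are held on heparan sulfate so that neutrophils can follow them across the epithelium. Their mRNAs carry AU-rich elements, which proteins such as ZFP36 bind to speed their decay, so that transcription and mRNA stability both set their levels.

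The 5 genes lie in 1 cluster on chromosome 4, and the sequence before each start is shown here because all 5 respond to IL1B in these data. The windows are the 120 bases before the annotated start, 5′ to 3′ on the gene's strand, from RefSeq (GRCh38.p14). All 5 members matched the promoter table. They stand at chr4:74099196-74099315 (minus strand), chr4:74038690-74038809 (minus strand), chr4:73998678-73998797 (minus strand), chr4:73836558-73836677 (plus strand) and chr4:73740449-73740568 (plus strand). Capitals mark the 9 letters GGAATTTCC, the core of a common NF-kB sequence.
CXCL2: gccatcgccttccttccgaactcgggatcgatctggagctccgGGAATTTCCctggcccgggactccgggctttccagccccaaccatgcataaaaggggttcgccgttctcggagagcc
CXCL3: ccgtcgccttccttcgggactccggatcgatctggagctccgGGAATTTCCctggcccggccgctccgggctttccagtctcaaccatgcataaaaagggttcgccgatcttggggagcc
CXCL5: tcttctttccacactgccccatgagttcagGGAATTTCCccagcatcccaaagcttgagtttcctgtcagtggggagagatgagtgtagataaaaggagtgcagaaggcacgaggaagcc
CXCL6: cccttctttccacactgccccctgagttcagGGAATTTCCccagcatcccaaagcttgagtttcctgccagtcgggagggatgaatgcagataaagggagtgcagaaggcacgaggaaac
CXCL8: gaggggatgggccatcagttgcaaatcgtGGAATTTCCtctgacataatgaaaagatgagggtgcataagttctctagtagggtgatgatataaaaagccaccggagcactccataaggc

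The stretch GGAATTTCC was chosen after the 5 promoters had been read, and it was then searched on both strands of the 250 bases before every start. All 5 members held it, against 145 of 35116 promoters (0.413%). It began 77 bases before the start of CXCL2 and 78 before that of CXCL3, and 90, 89 and 91 bases before those of CXCL5, CXCL6 and CXCL8. The longer NF-kB consensus sequence, which overlaps these letters, was matched in 4 of the 5 members and 5.21% of all promoters, and CXCL8 was the member without it. The AP-1 letters TGANTCA were found in CXCL8 alone among the members and in 6.57% of all promoters. CXCL8 alone also held the TATA box letters TATAAA, which 10.7% of promoters held. The GC box letters GGGCGG were found in CXCL3 and CXCL6 and in 42.6% of all promoters. A match here describes letters and not bound factors.

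**Figure D1:**
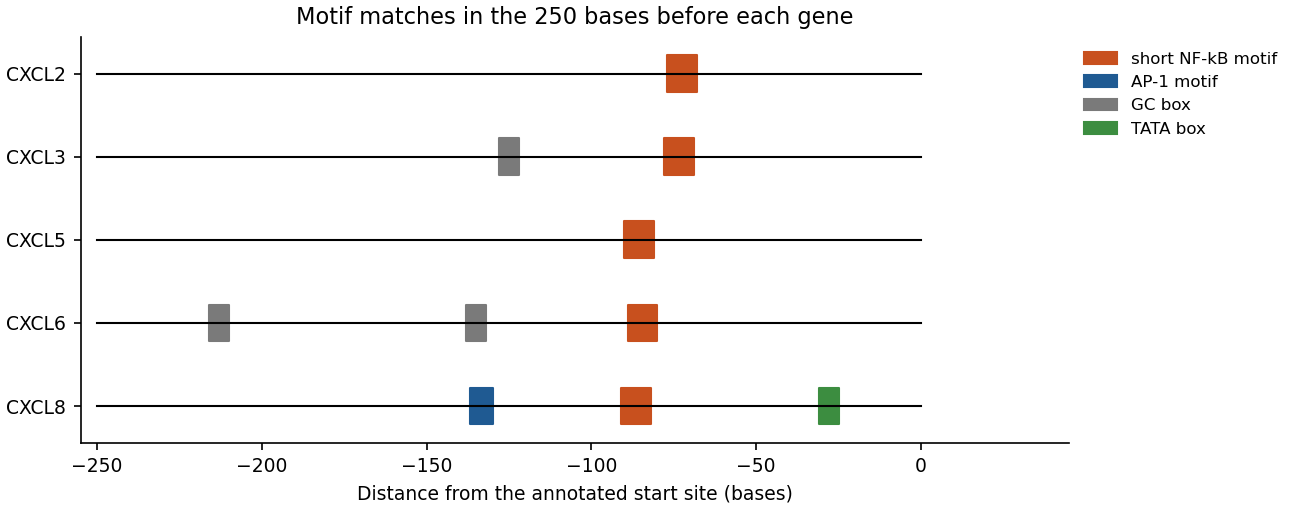
Matches of 4 motifs in the 250 bases before the start of each chemokine gene, with the distance from the start in bases on the x axis, 1 line for each gene and 1 box for each match on either strand. The short NF-kB motif stands 69 to 78 bases before CXCL2 and CXCL3 and 81 to 91 bases before CXCL5, CXCL6 and CXCL8.

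The windows fell into pairs. Over an alignment of the 250 bases before the start, CXCL5 and CXCL6 were identical at 85.3% of columns and CXCL2 and CXCL3 at 73.4%. The 8 other pairs were identical at 45.3% to 54.2% of columns. Transcripts of such close relatives can share probe sequence, and how well the probes tell CXCL2 from CXCL3 or CXCL5 from CXCL6 was not tested.

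The labels and the cell type were checked first. ORMDL3 itself read 5.00 to 5.57 on the 19 knockdown arrays and 6.78 to 7.77 on the 19 control arrays, so that the arms did not overlap. Of 16 lung epithelial markers 8 were measured, among them EPCAM, CDH1 and 4 keratins, and their mean level lay between 9.80 and 10.2 on control arrays and between 9.92 and 10.3 on knockdown arrays. Of 12 leukocyte markers 5 were measured, PTPRC not among them, with a mean level of 7.17 to 7.51 on control and 7.22 to 7.46 on knockdown arrays. Of 11 fibroblast and endothelial markers 3 were measured, with a mean of 6.20 to 6.71 on control and 6.21 to 6.84 on knockdown arrays. These table values include background signal, and no detection call was used. The arrays' medians ran from 8.02 to 8.19.

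All 5 chemokines rose after IL1B at every hour in both arms. In control cells 5 of 5 were called higher than at 0 h by limma (Benjamini-Hochberg adjusted p under 0.05), beside 10.3% of all probe sets at 2 h, 17% at 4 h, 16.4% at 8 h and 17.7% at 10 h. In knockdown cells 5 of 5 were called higher, beside 9.57%, 12.6%, 11.2% and 11.6% at the same hours. The comparisons with 0 h within an arm share its 0 h arrays. On the mean of the 4 IL1B hours the members' median change was 2.61 in control cells and 2.67 in knockdown cells, where the medians of all probe sets were -0.02 and -0.04. Over those hours 18.1% of all probe sets were called higher in control cells and 12.1% in knockdown cells. Over the same mean of 4 hours, the epithelial marker LAMP3 (2.37) was higher and 6 of the 8 epithelial markers, led by CDH1 (-0.81) and KRT19 (-0.66), were lower in control cells, and the leukocyte integrin ITGAM (0.61) was higher, as was the endothelial cadherin CDH5 (1.13), with THY1 lower (-0.73). The part of these shifts in the chemokine values was not tested. None of the 50 member values against 0 h changed its direction or its call under the 50 alternative settings that gave a value for it.

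**Figure D2:**
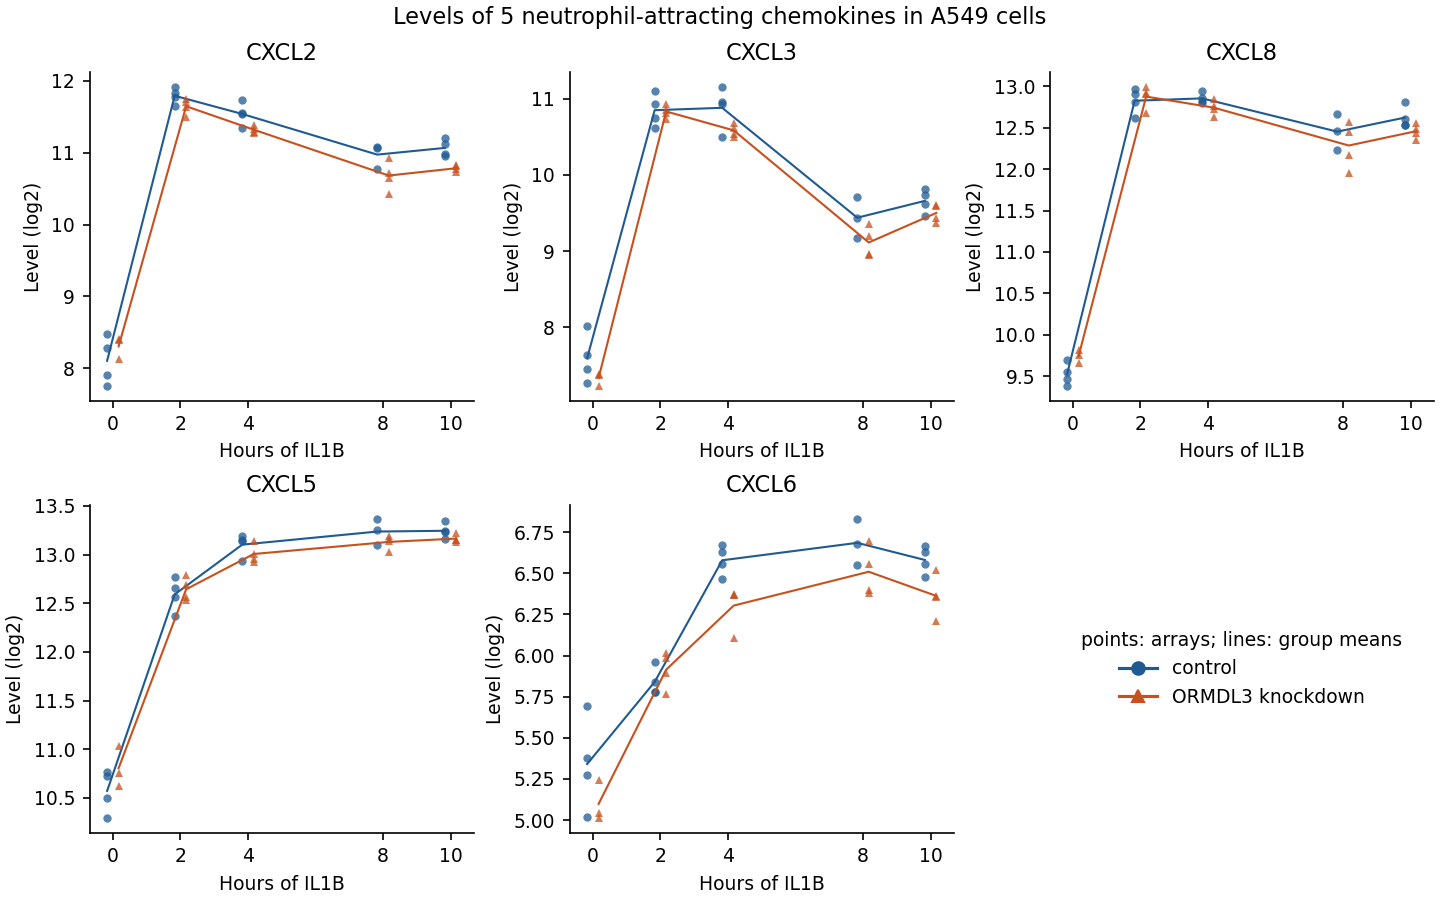
Log2 level (y axis) of each chemokine against hours of IL1B (x axis), with 1 point for each array, circles and blue lines for control, triangles and orange lines for ORMDL3 knockdown, and lines through the group means. CXCL2, CXCL3 and CXCL8 are highest at 2 or 4 h and lower at 8 h, whereas CXCL5 and CXCL6 rise until 4 h and lie at a similar height at 8 and 10 h; each panel has its own y axis.

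CXCL2, also called GRO-beta, is a ligand of CXCR2 and had the largest rise of the 5 in control cells at 2 h. Its level on the 4 control arrays (replicates 1 to 4) was 7.76, 8.47, 7.91 and 8.28 at 0 h and 11.66, 11.91, 11.77 and 11.83 at 2 h. It was 11.34, 11.73, 11.54 and 11.55 at 4 h, 10.77, 11.07 and 11.08 at 8 h and then 10.96, 11.21, 11.12 and 10.98 at 10 h. Every IL1B array lay above every 0 h array, the 2 and 4 h arrays overlapped, and all of these lay above the 8 and 10 h arrays. The change from 0 h was 3.69 ± 0.11 (SE) at 2 h, a 12.9-fold rise (limma adjusted p = 1.63e-23). At 8 h it was 2.87 ± 0.12, a 7.30-fold rise (limma adjusted p = 2.65e-19).

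In knockdown cells CXCL2 read 8.13, 8.39 and 8.40 at 0 h (replicates 1, 2 and 4) and 11.64, 11.70, 11.75 and 11.50 at 2 h (replicates 1 to 4). It read 11.28, 11.28, 11.33 and 11.39 at 4 h, 10.93, 10.65, 10.43 and 10.72 at 8 h and then 10.81, 10.82, 10.77 and 10.73 at 10 h. The order of the hours was that of the control arm, with 2 h above 4 h without overlap and 8 and 10 h overlapping. The rise from 0 h was 3.34 ± 0.12 at 2 h (10.1-fold, limma adjusted p = 2.75e-21) and 2.38 ± 0.12 at 8 h (5.19-fold, limma adjusted p = 7.61e-17).

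CXCL3, or GRO-gamma, also acts through CXCR2 and came back furthest from its early peak. Control arrays read 7.45, 8.03, 7.64 and 7.28 at 0 h, 10.62, 11.10, 10.75 and 10.92 at 2 h and then 10.49, 11.15, 10.95 and 10.92 at 4 h. They read 9.18, 9.71 and 9.43 at 8 h and 9.62, 9.81, 9.74 and 9.46 at 10 h. The 2 and 4 h arrays overlapped and stood apart from the 8 and 10 h arrays, which overlapped each other and stood above 0 h. The rise from 0 h was 3.25 ± 0.13 at 2 h (9.51-fold, limma adjusted p = 5.17e-20). At 8 h it was 1.84 ± 0.14 (3.58-fold, limma adjusted p = 2.78e-12).

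Knockdown arrays read 7.38, 7.39 and 7.24 for CXCL3 at 0 h, 10.85, 10.93, 10.81 and 10.73 at 2 h and then 10.54, 10.61, 10.50 and 10.68 at 4 h. They read 9.35, 9.19, 8.96 and 8.95 at 8 h and 9.59, 9.61, 9.37 and 9.44 at 10 h. Here all 5 hours stood apart, in the order 2, 4, 10, 8 and 0 h from the highest. The rise was 3.49 ± 0.14 at 2 h (11.2-fold, limma adjusted p = 8.73e-20) and 1.78 ± 0.14 at 8 h (3.42-fold, limma adjusted p = 1.05e-11).

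CXCL8, known as interleukin 8 and a ligand of both receptors, kept most of its early rise at the later hours. On control arrays it read 9.56, 9.69, 9.39 and 9.47 at 0 h, 12.81, 12.91, 12.62 and 12.96 at 2 h and then 12.82, 12.94, 12.79 and 12.85 at 4 h. It read 12.23, 12.66 and 12.46 at 8 h and 12.61, 12.54, 12.81 and 12.53 at 10 h. Neighbouring hours under IL1B overlapped in the order 4, 2, 10 and 8 h, and 0 h lay far below. The rise was 3.33 ± 0.10 at 4 h (10.0-fold, limma adjusted p = 1.75e-23) and 2.93 ± 0.11 at 8 h (7.60-fold, limma adjusted p = 1.29e-20).

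On knockdown arrays CXCL8 read 9.82, 9.66 and 9.76 at 0 h, 12.92, 12.91, 12.99 and 12.68 at 2 h and then 12.85, 12.62, 12.77 and 12.73 at 4 h. It read 12.57, 11.96, 12.45 and 12.17 at 8 h and 12.36, 12.44, 12.56 and 12.48 at 10 h. The 2 and 4 h arrays overlapped and lay above the 8 and 10 h arrays, which overlapped each other. The rise was 3.00 ± 0.11 at 4 h (7.99-fold, limma adjusted p = 4.59e-21) and 2.54 ± 0.11 at 8 h (5.82-fold, limma adjusted p = 1.04e-18).

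CXCL5, the epithelial-derived neutrophil attractant, climbed for longer. Control arrays read 10.29, 10.76, 10.73 and 10.50 at 0 h, 12.36, 12.77, 12.66 and 12.56 at 2 h and then 12.93, 13.19, 13.14 and 13.15 at 4 h. They read 13.10, 13.36 and 13.25 at 8 h and 13.23, 13.35, 13.24 and 13.16 at 10 h. The 4, 8 and 10 h arrays overlapped, lay above all 2 h arrays, and these lay above 0 h. The rise was 2.02 ± 0.09 at 2 h (4.05-fold, limma adjusted p = 2.02e-18) and 2.67 ± 0.09 at 10 h (6.37-fold, limma adjusted p = 1.26e-21). The arrays' highest values were 13.834 to 14.002, where CXCL5 from 4 h on lay between 12.92 and 13.36, and whether its later rise was compressed was not tested.

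Knockdown arrays read 10.63, 11.04 and 10.75 for CXCL5 at 0 h, 12.56, 12.79, 12.69 and 12.53 at 2 h and then 13.01, 13.13, 12.96 and 12.92 at 4 h. They read 13.19, 13.14, 13.16 and 13.02 at 8 h and 13.22, 13.15, 13.13 and 13.15 at 10 h. The same hours overlapped as in control cells. The rise was 1.84 ± 0.10 at 2 h (3.58-fold, limma adjusted p = 2.83e-16) and 2.36 ± 0.10 at 10 h (5.13-fold, limma adjusted p = 6.89e-19).

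CXCL6, or granulocyte chemotactic protein, had the smallest rise of the 5 at every hour and a probe set below the median level of all probe sets. Control arrays read 5.27, 5.38, 5.02 and 5.69 at 0 h, 5.78, 5.96, 5.78 and 5.84 at 2 h and then 6.46, 6.67, 6.55 and 6.63 at 4 h. They read 6.55, 6.83 and 6.68 at 8 h and 6.55, 6.67, 6.63 and 6.48 at 10 h. The 4, 8 and 10 h arrays overlapped and lay above those of 2 h, and these lay above 0 h. The rise was 0.50 ± 0.10 at 2 h (1.41-fold, limma adjusted p = 0.000254) and 1.34 ± 0.11 at 8 h (2.54-fold, limma adjusted p = 4.78e-12).

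Knockdown arrays read 5.04, 5.24 and 5.01 for CXCL6 at 0 h, 5.89, 6.01, 5.99 and 5.76 at 2 h and then 6.37, 6.37, 6.37 and 6.11 at 4 h. They read 6.38, 6.56, 6.70 and 6.40 at 8 h and 6.36, 6.36, 6.52 and 6.21 at 10 h. Here 10 h overlapped with both 8 and 4 h, 8 h stood just above 4 h, and all of these stood above 2 h. The rise was 0.82 ± 0.11 at 2 h (1.76-fold, limma adjusted p = 3.51e-07) and 1.41 ± 0.11 at 8 h (2.66-fold, limma adjusted p = 2.36e-12). Levels this low hold a larger share of background signal, whose part in these differences was not tested.

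CXCL5 and CXCL6 went on rising after 2 h. From 2 to 4 h in control cells, CXCL5 rose by 0.51 ± 0.09 (limma adjusted p = 0.000180) and CXCL6 by 0.74 ± 0.10 (limma adjusted p = 1.53e-06), 2 of 5 members beside 6.54% of all probe sets called higher. The other members differed by -0.25 ± 0.11 (CXCL2), 0.03 ± 0.13 (CXCL3) and 0.03 ± 0.10 (CXCL8) over that step, with limma adjusted p of 0.160, 0.929 and 0.914. In knockdown cells CXCL5 rose by 0.36 ± 0.09 (limma adjusted p = 0.00720) and CXCL6 by 0.39 ± 0.10 (limma adjusted p = 0.00625), beside 7.82% of probe sets. The CXCL6 call was not kept without all replicate 1 arrays (0.36, limma adjusted p = 0.0974). CXCL2 lay lower at 4 h than at 2 h in knockdown cells, with a value of -0.33 ± 0.11 (limma adjusted p = 0.0495), 1 of 5 members beside 6.81% of probe sets called lower. That value sat at the threshold: it passed without each of 12 single arrays and did not without each of the other 26 (limma adjusted p of 0.0506 to 0.124).

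From 4 to 8 h CXCL2, CXCL3 and CXCL8 fell in both arms, and CXCL5 and CXCL6 were not called. In control cells CXCL3 fell by 1.44 ± 0.14 to 36.9% of its 4 h level on the linear scale (limma adjusted p = 1.92e-09). CXCL2 fell by 0.57 ± 0.12 (limma adjusted p = 0.000730) and CXCL8 fell by 0.40 ± 0.11 (limma adjusted p = 0.00815), so that 3 of 5 members were called lower beside 10.6% of all probe sets. The CXCL8 call rested on control replicate 1 at 8 h, its lowest array of that hour: without it the value was -0.29 (limma adjusted p = 0.0992). In knockdown cells CXCL3 fell by 1.47 ± 0.13 (limma adjusted p = 2.02e-10), CXCL2 fell by 0.64 ± 0.11 (limma adjusted p = 5.28e-05) and CXCL8 fell by 0.46 ± 0.10 (limma adjusted p = 0.00109), beside 12.7% of probe sets called lower. Over the same step CXCL5 differed by 0.13 ± 0.10 and CXCL6 by 0.11 ± 0.11 in control cells, with limma adjusted p of 0.413 and 0.561. In knockdown cells these values were 0.12 ± 0.09 and 0.21 ± 0.10, with limma adjusted p of 0.404 and 0.150. Whether the steps of one gene differ from those of another was not tested.

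From 8 to 10 h limma called 0 of 5 members in either arm, beside 2.88% of all probe sets in control and 2.33% in knockdown cells, in either direction. At an unadjusted p under 0.05 the count was 0 in control and 1 in knockdown cells, and the 1 was CXCL3. The share of all probe sets at that unadjusted threshold was not counted. The value of CXCL3 in knockdown cells was 0.39 ± 0.13 (limma adjusted p = 0.128), with the 4 arrays of 10 h above the 4 of 8 h. In control cells it was 0.22 ± 0.14 (limma adjusted p = 0.443), with overlapping arrays.

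**Figure D3:**
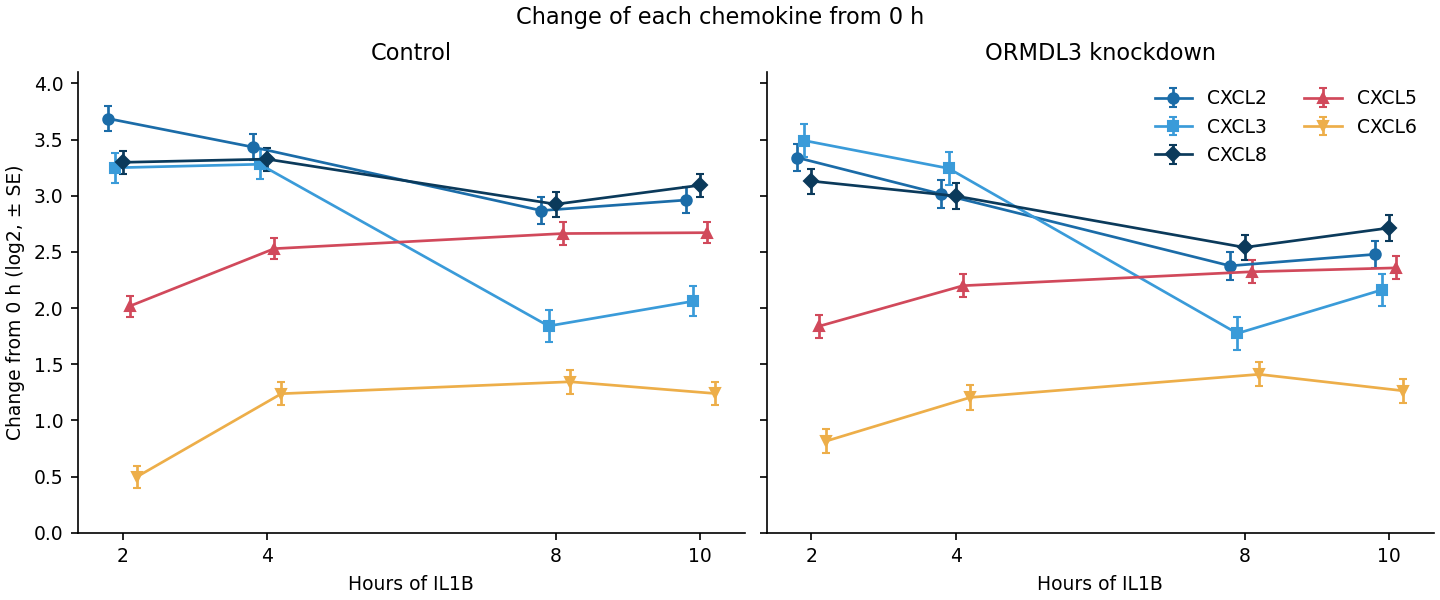
Change of each chemokine from 0 h in log2 units (y axis) against hours of IL1B (x axis), in control cells on the left and ORMDL3 knockdown cells on the right, with points for limma estimates and bars for their standard errors. CXCL3 drops from 3.28 at 4 h to 1.84 at 8 h in control cells and from 3.24 to 1.78 in knockdown cells, while CXCL5 and CXCL6 stay close to their 4 h values or above them.

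Differences between the arms were small beside those between IL1B hours and 0 h. At each single hour limma called 0 of 5 members different between the arms, beside 3.31%, 6.18%, 1.84%, 2.88% and 2.28% of all probe sets at 0, 2, 4, 8 and 10 h, in either direction. At an unadjusted p under 0.05 the counts were 2, 0, 2, 2 and 2 of 5. Of those at 0 h 1 was higher and 1 lower in knockdown cells, and those at 4, 8 and 10 h were all lower. The share of all probe sets at that unadjusted threshold was not counted, so that these counts have no base beside them. Before IL1B the knockdown arm had values of 0.20 ± 0.12 for CXCL2, 0.23 ± 0.10 for CXCL5 and 0.22 ± 0.11 for CXCL8 relative to control. The values were -0.26 ± 0.14 for CXCL3 and -0.24 ± 0.11 for CXCL6. The limma adjusted p at 0 h ran from 0.254 to 0.473 over the 5 members, and the arms overlapped for each of them.

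At 2 h the values were -0.15 ± 0.11 for CXCL2 and -0.02 ± 0.13 for CXCL3. Those of CXCL5 (0.05 ± 0.09), CXCL6 (0.07 ± 0.10) and CXCL8 (0.05 ± 0.10) were positive at that hour. At 4, 8 and 10 h all 5 members had negative values, from -0.08 to -0.32, with CXCL8 at 8 h turning from -0.17 to 0.05 without the replicate 2 arrays. CXCL2 had a value of -0.28 ± 0.11 in knockdown cells at 10 h, and its 4 knockdown arrays (10.73 to 10.82) lay below its 4 control arrays (10.96 to 11.21). CXCL6 had a value of -0.28 ± 0.10 at 4 h, and its knockdown arrays (6.11 to 6.37) lay below its control arrays (6.46 to 6.67). Neither passed limma's test (adjusted p = 0.228 and 0.184). The arms overlapped in the other 23 combinations of member and hour. How many of all probe sets had arms apart at these hours was not counted, so that the combinations with arms apart have no base beside them.

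Averaged over the 5 hours, 3 of 5 members were called lower in knockdown cells, beside 12.1% of all probe sets called lower. CXCL3 had a value of -0.21 ± 0.06, 86.4% of control (limma adjusted p = 0.0121). CXCL6 had a value of -0.17 ± 0.05, 89.0% of control (limma adjusted p = 0.00755). CXCL2 had a value of -0.15 ± 0.05, 90.3% of control (limma adjusted p = 0.0390). CXCL8 (-0.04 ± 0.05, limma adjusted p = 0.653) and CXCL5 (0.00 ± 0.04, limma adjusted p = 0.992) were not called, with 95% intervals of -0.13 to 0.06 and -0.09 to 0.09.

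The averaged calls depended on which arrays were used. CXCL2's was not kept without any one of 13 single arrays: in the control arm replicate 2 of any hour, replicate 3 of 8 or 10 h and replicate 4 of 0 h, and in the knockdown arm replicate 1 of 0 h, replicate 2 of 4 h, replicate 3 of 8 h and replicate 4 of 2 or 10 h. The values then were -0.12 to -0.14 and the limma adjusted p 0.0507 to 0.0764. Without all arrays of number 2, 3 or 4 it was -0.09, -0.14 or -0.14 (limma adjusted p = 0.297, 0.160 and 0.139), and the call was also lost with array medians subtracted (limma adjusted p = 0.0544) and with array weights (limma adjusted p = 0.0767). The CXCL3 call was not kept without all replicate 2 arrays (-0.14, limma adjusted p = 0.122) or all replicate 3 arrays (-0.18, limma adjusted p = 0.148). The CXCL6 call was not kept without all replicate 2 arrays (-0.16, limma adjusted p = 0.0639) or all replicate 4 arrays (-0.10, limma adjusted p = 0.122). Replicate 2 arrays were the high ones: they lay above their group mean in 8, 10, 9 and 9 of 10 groups for CXCL2, CXCL3, CXCL5 and CXCL6, and in 5 of 10 for CXCL8. The part of these arrays' shared deviation in the averaged difference was not tested.

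**Figure D4:**
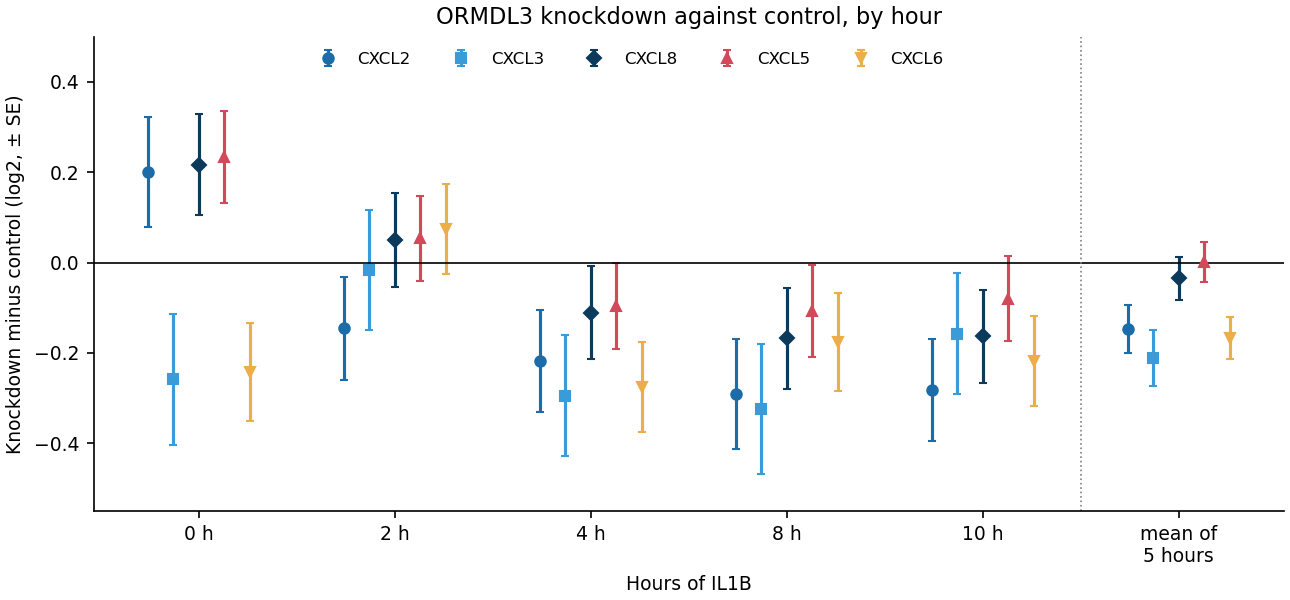
Difference in log2 level between ORMDL3 knockdown and control cells (y axis) for each chemokine at each hour of IL1B and as the mean of the 5 hours (x axis), with points for limma estimates and bars for standard errors. The points of CXCL2, CXCL5 and CXCL8 at 0 h and of CXCL5, CXCL6 and CXCL8 at 2 h lie above 0. At 4, 8 and 10 h every point lies below 0, although that of CXCL8 at 8 h turns to 0.05 without the replicate 2 arrays, and the averaged values of CXCL2, CXCL3 and CXCL6 lie between -0.15 and -0.21.

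The response to IL1B was compared between the arms with an interaction contrast, the knockdown arm's change from 0 h minus the control arm's. On the mean of the 4 IL1B hours the value was -0.44 ± 0.14 for CXCL2, so that its mean rise was 6.98-fold in knockdown and 9.44-fold in control cells. It was -0.32 ± 0.12 for CXCL8 (7.19-fold against 8.94-fold) and -0.29 ± 0.11 for CXCL5 (4.53-fold against 5.54-fold). It was 0.06 ± 0.16 for CXCL3 and 0.09 ± 0.12 for CXCL6. None passed limma's test over all probe sets: the adjusted p was 0.242 for CXCL2, 0.375 for CXCL5, 0.379 for CXCL8, 0.926 for CXCL3 and 0.818 for CXCL6. The test called 0 of 5 members beside 0.235% of all probe sets, in either direction. At an unadjusted p under 0.05 the count was 3 of 5, all lower. The share of all probe sets at that threshold was not counted, so that this count has no base beside it. Of all probe sets that limma called for this contrast, 33 were lower and 1 was higher. The 95% intervals, not adjusted for the number of tests, ran from -0.71 to -0.16 for CXCL2 and from -0.52 to -0.06 for CXCL5. They ran from -0.57 to -0.06 for CXCL8, from -0.27 to 0.39 for CXCL3 and from -0.15 to 0.34 for CXCL6.

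At the single hours the interaction value of CXCL2 was -0.35 ± 0.17, -0.42 ± 0.17, -0.49 ± 0.17 and -0.48 ± 0.17 at 2, 4, 8 and 10 h. Its limma adjusted p was 0.385, 0.779, 0.303 and 0.579. At each of the 4 hours 0 of 5 members were called, beside 0.0276%, 0.069%, 0.228% and 0.0828% of probe sets, and 2, 3, 3 and 3 of 5 had an unadjusted p under 0.05. Of the 2 at 2 h, CXCL2 was lower and CXCL6 higher (0.32 ± 0.15), and at 4, 8 and 10 h all 3 were lower. How many of all probe sets had an unadjusted p under 0.05 was not counted, for these contrasts or for the joint test that follows. The joint F test over the 4 hours called 0 of 5 members beside 0.166% of probe sets, with limma adjusted p from 0.566 (CXCL2) to 0.898 (CXCL3), and only CXCL2 had an unadjusted p under 0.05 (0.0416). Arrays were also weighted by their scatter in the fit. On the mean of the 4 hours CXCL2 (-0.47, limma adjusted p = 0.0284) and CXCL5 (-0.41, limma adjusted p = 0.0274) then passed. The count of all probe sets called for this contrast was 34 in the main fit and 4 to 536 over the settings. Array weights were among the settings that moved it, and the share called under them is not given here. Each interaction value contains the 3 knockdown and 4 control arrays of 0 h. At that hour the knockdown values relative to control were positive for CXCL2, CXCL5 and CXCL8 and negative for CXCL3 and CXCL6. The part of these arrays in the interaction values was not tested.

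Each chemokine's course was set against all other single-symbol probe sets by Pearson's r over the 10 group means, which share the contrast of IL1B hours with 0 h, so that high values are common. For CXCL2 the highest were TNFAIP3, an NF-kB target that ends NF-kB signalling (r = 0.998), PTGS2, the inducible cyclooxygenase (0.995), and the chemokine CCL20 (0.994). For CXCL8 they were CCL2, the attractant of monocytes (0.998), IL6 (0.996) and IRAK2, a kinase of the IL1 receptor complex (0.991). For CXCL3 they were CSF1, the macrophage growth factor (0.993), and the cells' own IL1B (0.991) and IL1A (0.991). For CXCL5 they were C1QTNF1 (0.997), LAMB3, a laminin chain (0.997), and PI3, an elastase inhibitor called elafin (0.993). For CXCL6 they were LCN2, an iron-scavenging protein of mucosal defence (0.985), GLRX (0.985) and CASP4 (0.984).

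Among the members the closest pairs were CXCL2 with CXCL8 (r = 0.990) and CXCL2 with CXCL3 (0.958). CXCL5 had values of 0.940 with CXCL8, 0.938 with CXCL6 and 0.751 with CXCL3. The lowest value was that of CXCL3 with CXCL6 (0.583). CXCL3 stood closer to CXCL2, whose promoter window is like its own, than to CXCL8 (0.922), CXCL5 or CXCL6, but CXCL2 was nearer still to CXCL8. The windows of CXCL5 and CXCL6 were the most alike (85.3%), and CXCL5 was no closer in course to CXCL6 than to CXCL8. CXCL6 in turn was closer to CXCL5 (0.938) than to CXCL8 (0.800), CXCL2 (0.728) or CXCL3 (0.583). Whether likeness of the windows and likeness of course go together was not tested.

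The pathway leading to these genes was described by lists of measured genes on the mean of the 4 IL1B hours in control cells, where 18.1% of all probe sets were called higher and 21.2% lower. Of 16 measured genes of the IL1 receptor and its first signalling steps, 8 rose and 2, SIGIRR (-0.19) and TAB1 (-0.13), fell (median 0.16). The count of 2 was not kept without any one of 12 single arrays, all of them control arrays, and ran from 0 to 2 over the settings. The largest changes were those of IRAK2 (2.45), IRAK3, which restrains the receptor complex (1.81), and the kinase MAP3K8 (1.05). Of 17 NF-kB subunits, kinases and inhibitors 15 rose and 0 fell, with a median of 1.52. TNFAIP3 changed by 3.84, the nuclear inhibitor NFKBID by 2.56, and the subunits RELB and NFKB2 by 2.28 and 2.09. Of 14 AP-1 and C/EBP factors 9 rose and 3 fell. CEBPD (1.55), MAFF (1.20) and CEBPB (0.99) were among the higher ones and FOS (-1.33), FOSB (-0.68) and DDIT3 (-0.28) were the lower ones. Each gene named as largest here passed limma's test, with adjusted p from 7.66e-33 (TNFAIP3) to 2.05e-10 (FOS).

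Of 13 MAP kinases, kinase kinases and phosphatases 7 rose and 2 fell. The phosphatases DUSP16 (1.92) and DUSP10 (1.70), which switch MAP kinases off, and the kinase MAP2K3 (1.33) rose, and the values of MAP2K6 (-1.27) and MAPKAPK3 (-0.32) were lower. Of 15 factors that bind or degrade AU-rich and stem-loop mRNAs 7 rose and 1 fell, the latter ZFP36L2 (-0.25), a call not kept without control 0 h replicate 2, 3 or 4. ZC3H12A, an RNase that cuts cytokine mRNAs, rose by 2.03 and its relative ZC3H12C by 1.88, and ZFP36, the binder of AU-rich elements, by 0.67 (limma adjusted p = 2.10e-16, 3.72e-20 and 0.000841).

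Further down the path, 8 of 18 genes that hold chemokines on the cell or cut them rose and 2 fell. MMP1, a collagenase, rose by 2.52, the heparan sulfate carrier SDC4 by 1.78, the protease MMP7 by 1.01 and EXT1, which extends heparan sulfate, by 0.85. The 2 that fell were the syndecans SDC1 (-0.50) and SDC3 (-0.28). Of 15 other epithelial products that help recruit neutrophils 14 rose and 0 fell, with a median of 3.19. CCL20 changed by 6.61, ICAM1, the adhesion ligand of neutrophil integrins, by 5.43, IL1A by 5.07 and IL6 by 4.77. Of 4 other CXC or CX3C chemokines measured 3 rose, CXCL10 (3.17), CX3CL1 (2.25) and CXCL11 (1.16), which act on lymphocytes and monocytes. CXCL16 did not pass (-0.07, limma adjusted p = 0.394). The receptors CXCR1 and CXCR2 and the decoy receptor ACKR1 had no single-symbol probe set here and were not analysed.

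The same lists were counted for ORMDL3 knockdown against control on the mean of the 5 hours, where 10.9% of all probe sets were called higher and 12.1% lower. Of the 15 other recruiting products 7 were called lower and 1 higher. LCN2 had a value of -0.56, ICAM1 of -0.53, IL1B of -0.38 and CCL20 of -0.37, and the 1 higher was complement C3 (0.29), with limma adjusted p from 1.07e-09 (C3) to 0.000161 (CCL20). Of the 16 IL1 receptor genes 5 were lower, led by IRAK3 (-0.52), IRAK2 (-0.26) and MAP3K8 (-0.20), and 0 were higher. Of the 17 NF-kB genes 4 were lower, NFKBID (-0.19), BCL3 (-0.15), IKBKB (-0.12) and NFKBIB (-0.11), and 1, CYLD (0.13), was higher. CXCL10 had a value of -0.62 and CXCL11 of -0.23, and the latter call was not kept without any one of 22 single arrays. The CXCL11 call was also lost with array medians subtracted, with another variance moderation and with the replicate number as a fixed block. Of the 18 holding and cutting genes 6 were higher and 1, EXT2 (-0.08), was lower. ANPEP and DPP4, peptidases that trim chemokine ends, had values of 0.50 and 0.32, and MMP9, which cuts CXCL8 and CXCL5, one of 0.44. Of the 14 AP-1 and C/EBP factors FOS (0.25), FOSB (0.27) and FOSL1 (0.16) were higher and CEBPG (-0.09) was lower. Of the 13 MAP kinase genes DUSP5 (-0.22) and DUSP16 (-0.09) were lower, and of the 15 decay factors the decapping enzyme DCP2 (0.14) was higher. The call of FOSB was not kept without any one of 25 single arrays, nor that of DUSP16 without any one of 23. The DUSP16 call was also lost with array medians subtracted, with quantile normalization and with array weights. The calls of IKBKB, CYLD, FOS, FOSL1, CEBPG, DUSP5 and DCP2 were each lost without all arrays of at least 1 replicate number. Among the cell type markers the keratin KRT19 (0.60), the lipid carrier ABCA3 (0.27) and the macrophage marker CD68 (0.14) were higher and EPCAM (-0.19) was lower, the last not without any one of 12 single arrays, and their part in the chemokines' differences was not tested.

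For the interaction contrast on the mean of 4 hours, 2 of the 17 NF-kB genes were called lower, NFKB2 (-0.57 ± 0.10, limma adjusted p = 0.00331) and TNFAIP3 (-0.47 ± 0.09, limma adjusted p = 0.00738). The count of 2 ran from 0 to 8 over the settings, with 8 under array weights and 0 without all arrays of number 1 or 3, which ended both calls. The TNFAIP3 call was also not kept without all arrays of number 4, nor without knockdown 0 h replicate 1 or replicate 4 alone. Among the 15 other recruiting products IL6 was called (-0.82 ± 0.15, limma adjusted p = 0.00669). Its call was not kept without knockdown 0 h replicate 1, nor without all arrays of number 1, 2 or 3. TNFAIP3 is the gene nearest in course to CXCL2 and IL6 is among the 3 nearest to CXCL8, and the interaction values of these chemokines did not pass. Of the 15 decay factors ZC3H12C was called lower (-0.52 ± 0.12, limma adjusted p = 0.0390). That call was not kept without any one of 13 single arrays, nor without all arrays of number 1, 2 or 3. The ZC3H12C call was also lost with array medians subtracted and with quantile normalization.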

How the data were processed

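Transcript levels were read on 38 Affymetrix arrays. The authors deposited 1 table of log2 expression values for 14488 probe sets. The tools named are RMA, limma 3.22.7 and Affymetrix Power Tools, and the build named is hg19, per the submitters' processing notes, which give them no role or order. The sources used here do not say how the probe sets were selected. Of the probe sets 12132 carried 1 gene symbol, 628 several and 1728 none, by the platform annotation.

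The values were used with no further normalization. Every probe set was fitted over all arrays with a mean per group (10 groups; limma 3.58.1, R 4.3.3), with p-values adjusted by Benjamini-Hochberg over all 14488 and a threshold of 0.05. The fit was tested on simulated data. The number of arrays limits the precision. Promoters were searched and aligned in Python 3.11.15 with Biopython 1.88.

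The members and gene lists were chosen with earlier results of these data known. The text names every member, the 3 probe sets closest in course to each, ORMDL3, and up to 4 called genes of each list by size of change. Further list genes, where few moved in a direction, were named after their values were seen. Alternatives were 2 array scalings, a filter on dim probe sets, another variance moderation, array weights, the replicate number as a block, only the compared groups, and each array or replicate number left out.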

Additional observations from a re-analysis of the deposited data

Results flagged for a closer look

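Each of the 5 chemokines was checked in each group of 4 arrays for an array far from the others. Of these 40 checks, which share arrays, 1 marked an array. CXCL6 in knockdown cells at 4 h read 6.11 on replicate 4, where the other 3 arrays each read 6.37, a gap of 0.969 of the group's whole range. The limit that marks an array, 0.829 of its group's range, is one that chance passes in about 1 in 20 such checks. The knockdown arrays of that group lay below all control arrays of 4 h with and without this one.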

How the results depend on the processing

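Of 119 chemokine values followed, 96 kept direction and call under each of the 50 settings that gave a value. The interaction values of CXCL3, CXCL5, CXCL6 and CXCL8 at single hours were not among those followed. Without dim probe sets CXCL6 was not tested, so that 1 member was called higher from 2 to 4 h in each arm. With array weights 1 member, CXCL5 (0.36, limma adjusted p = 0.0102), was higher in knockdown cells at 0 h, 0 were lower from 2 to 4 h in knockdown cells, and 2 had a smaller response. Subtracting array medians also gave 0 for that step. Left-out arrays gave 1 to 2 members higher and 0 to 1 lower from 2 to 4 h in knockdown cells, and 0 to 3 lower in knockdown cells on the mean of 5 hours.

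Some values reversed, most of them near 0; the exception, CXCL8 between arms at 8 h, was -0.17 with all arrays. With array weights these were CXCL3 from 2 to 4 h (-0.0128) and CXCL5 from 8 to 10 h (-0.0006) in control cells, and the response difference of CXCL6 (-0.0263). With array medians they were CXCL5 from 8 to 10 h in control (-0.0067) and knockdown cells (-0.0102) and CXCL3 between arms at 2 h (0.0019, and 0.0045 with quantile normalization). With arrays left out, the control steps ran from -0.059 to 0.16 for CXCL3 and -0.0407 to 0.0746 for CXCL8 (2 to 4 h), and from -0.0073 to 0.145 for CXCL2 and -0.0613 to 0.0701 for CXCL5 (8 to 10 h). The step of CXCL5 from 8 to 10 h in knockdown cells ran from -0.001 to 0.0571. Differences between arms at 2 h ran from -0.0999 to 0.0672 (CXCL3), -0.0219 to 0.114 (CXCL5) and -0.0571 to 0.161 (CXCL8), that of CXCL8 at 8 h from -0.371 to 0.0478, and the means of 5 hours from -0.0438 to 0.0195 (CXCL5) and -0.0883 to 0.0407 (CXCL8). Response differences ran from -0.0824 to 0.167 (CXCL3) and -0.0247 to 0.201 (CXCL6). The cause was not tested.

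The replicate number as a fixed block called CXCL3 higher from 8 to 10 h in knockdown cells (1 member, limma adjusted p = 0.0405) and changed no other member call. Same-numbered arrays deviated together with r over 0.1 in 107 of 162 pairs and not in all of them (lowest -0.286), so that the numbers were not taken to pair the arrays. The median was 0.178, against -0.0556 for arrays of different numbers, and 28 of 38 arrays correlated best with their own number, a hint in the data of something shared by number that the labels do not name.

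Counts over all probe sets moved more. The count called on the mean of 4 IL1B hours was 5688 in control cells (3304 to 6307 over the settings) and 4501 in knockdown cells (2651 to 6825). Between arms it was 3332 on the mean of 5 hours (2131 to 3953), and for the response difference 34 (4 to 536). At 0, 2, 4, 8 and 10 h the counts between arms were 480 (92 to 1552), 896 (149 to 2240), 267 (36 to 623), 417 (46 to 625) and 330 (51 to 670). From 8 to 10 h they were 417 (25 to 1559) in control and 338 (4 to 624) in knockdown cells. Levels low on the array scale, as for CXCL6, limit the size of a change that can be read, and 0 h in knockdown cells rests on 3 arrays.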

Other observations

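The letters GGAATTTCC, shared by the 5 chemokine promoters, were also found in the 250 bases before the start of 49 other measured genes. In control cells at 2 h of IL1B 27 of these were called higher and 1 lower by limma (55.1% and 2.04%), with a median change of 0.33. Of all 9534 measured genes with a promoter entry 1056 (11.1%) were higher and 1047 lower, with a median of -0.04. The largest rises among the 49 were those of ICAM1 (6.30), TNFRSF9, a receptor of the tumour necrosis factor family (4.56), and the NF-kB subunit gene NFKB1 (2.78). On the mean of 5 hours 2 of the 49 were called higher and 16 lower in knockdown cells (4.08% and 32.7%), where 11.6% and 13.9% of all measured genes with an entry were. The stretch was chosen from the chemokines after their response was known, and these shares are given as a description.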
